A study of Mus musculus with 9 samples.

Results

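The Notch1 allele dose series consists of 5 of the 9 arrays of the study, which profiled whole mouse embryos at 9.5 days post coitum (dpc). Its arrays were taken by their labels: 2 arrays of embryos with no targeted allele (+/+, wild type), 1 array heterozygous for a targeted Notch1 allele (Notch1tm1Con/+, called the het array) and 2 arrays homozygous for it (Notch1tm1Con/tm1Con, called the null arrays). The number of targeted Notch1 alleles is thus 0, 1 and 2 along the series. The other 4 arrays carried wild-type Notch1 and a targeted Dll3 allele, 2 as Dll3neo/+ and 2 as Dll3neo/neo, and are given beside the members as a background. The label of 1 null array names the C57BL/6J strain and the other labels name none. The labels do not say whether an array holds 1 embryo or a pool, nor whether the replicates came from different litters. The p-values therefore describe the scatter among these arrays, part or all of which may be technical. The question was which transcripts were graded with the number of targeted alleles, which differed only with both alleles targeted, and which had already reached the null level in the het array.

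Notch1 is a membrane receptor that is cut when a ligand of the Delta or Jagged family on a neighbouring cell binds it. The released intracellular part enters the nucleus, joins the DNA-binding protein Rbpj and switches on repressor genes of the Hes and Hey families. In the mid-gestation embryo this signal holds back neuronal differentiation, sets the borders of somites and shapes the vessels and the heart, and embryos without Notch1 die at mid-gestation with vascular and somite defects.

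Of the probe sets on the array, 22626 were tested, a probe set being a group of short probes for 1 transcript. The deposited values are ratios in which each probe set had been divided by a number of its own, so 1 is near the middle of the 9 arrays and levels cannot be compared between genes. For the same reason the labelled tissue could not be checked by the level of its defining markers. The medians of the 9 arrays lay between -0.04 and 0.01 on the log2 scale relative to the wild-type mean. The arrays differed in ways the genotype does not name. The mean ratio over the 6 dap control probe sets was 7.07 and 9.91 in wild type, 1 in the het array, and 5.41 and 2.68 in null. In the Dll3 arrays it was 0.382 to 0.421. For the thr control it was 2.94 and 4.25 in wild type, 0.953 in het, 2.06 and 1.28 in null, and 0.615 to 0.704 in the Dll3 arrays. On both controls the null arrays lay below wild type and the het array between the null and the Dll3 arrays. The comparisons of the null and the Dll3 arrays with wild type carry these differences too, and their part was not tested. The 3' minus 5' difference of the Actb control, a sign of RNA integrity, was 0.16 log2 units in the het array and -0.11 to 0.11 in the others. For the Gapdh control it was 0.06 in the het array, inside the range of the others (-0.10 to 0.16). Xist (1436936_s_at), which is expressed from the inactive X chromosome of females, read 11.4 in the het array, 22.2 in null 1, 0.856 in null 2, and 0.688 and 0.727 in wild type. The het array and null 1 were therefore of the female pattern and both wild-type arrays of the male one. With 1 het array, the allele, the embryo's sex and these properties of the library cannot be told apart for any value that rests on it, and their part was not tested except where embryo sex was added as a covariate.

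Both Notch1 probe sets were higher, not lower, in the null arrays. Notch1 1418633_at read 0.916 and 1.01 in wild type, 1.08 in the het array, and 1.47 and 1.69 in null, while the Dll3 arrays read 0.752 to 1. The null arrays lay above all the others and the het array lay just above wild type. The difference of null minus wild type was 0.71 ± 0.13 (log2 ± SE, limma, 2 against 2 arrays, adjusted p = 0.0138), and the call was lost without null 2 (0.61), without wild type 1 (0.64) and without wild type 2 (0.78). Notch1 1418634_at read 0.974 and 1.02, then 1.06, then 1.31 and 1.74, with a difference of 0.60 ± 0.23 (adjusted p = 0.142). The labels do not say where these probes lie relative to the deleted part of the gene, so the values neither bear out nor contradict the genotype labels.

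Between null and wild type 2139 probe sets differed at an adjusted p under 0.05, 9.45% of those tested, 783 of them higher in null (3.46%) and 1356 lower (5.99%). In all 2139 the null arrays did not overlap the wild-type arrays, and these are called the dose set. They cover 1617 genes with a single symbol. Because allele number has 3 evenly spaced steps, this contrast is also the test of a straight-line trend, whose slope per allele is the null minus wild-type difference divided by 2. Between het and wild type 624 probe sets differed (2.76%), 224 higher (0.99%) and 400 lower (1.77%). Between null and het 403 differed (1.78%), 193 higher (0.853%) and 210 lower (0.928%). From the midpoint of wild type and null the het array departed in 215 probe sets (0.95%), 81 of them toward higher (0.358%) and 134 toward lower values (0.592%). The 4 Dll3 arrays together differed from the same wild-type arrays in 142 (0.628%), 65 higher (0.287%) and 77 lower (0.34%). The second Notch1 allele, null minus het, differed from the second Dll3 allele, likewise measured, in 47 (0.208%), 26 upward (0.115%) and 21 downward (0.0928%). The limits just inside and outside the threshold were Slc25a44 (1436909_at, -0.66 log2 units, adjusted p = 0.05 as rounded) and Qk (1429318_a_at, 0.47, adjusted p = 0.0501).

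These counts depended on single arrays. The null minus wild-type count was 879 without null 1, 306 without null 2, 610 without wild type 1 and 398 without wild type 2. Het minus wild type gave 268 without either null array, 334 without either Dll3neo/+ array and 0 without either wild-type array, so that every count of a gene list in het given further on was then 0, where 3635 and 3510 probe sets stood at an unadjusted p under 0.05 in limma. Null minus het gave 78 and 22 without null 1 and null 2, 126 without either wild-type array and 191 without either Dll3neo/+ array. The departure from the midpoint fell to 1 probe set without any 1 of the wild-type or null arrays and to 0 without either Dll3neo/+ array (3980 at an unadjusted p under 0.05). A group left with 1 array is then assumed to vary like the others. Among 106 probe sets named by rule and called between null and wild type, 53 kept the call whichever of the 8 wild-type, null and Dll3 arrays was left out.

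The place of the het array was measured as its position, which is 0 at the wild-type mean, 1 at the null mean and 0.5 where the first allele accounts for the same log2 change as the second. Over the dose set the median position was 0.51 (quartiles 0.19 and 0.86), 0.48 for transcripts higher in null and 0.52 for those lower. It ranged from 0.40 without null 1 to 0.61 with embryo sex as a covariate. When members were chosen without wild type 1 and measured against that array alone, it was 0.48, and with wild type 2 treated so it was 0.47. By bands of position, 512 probe sets (23.9%) lay near wild type (-0.25 to 0.25), 815 (38.1%) were intermediate (0.25 to 0.75), 500 (23.4%) lay near null (within 0.25 of 1), 189 (8.84%) lay beyond null and 123 (5.75%) lay on the other side of wild type. The bands are a description. Probe sets of 1 gene often disagreed on the band, since over 283 genes with several members the median spread of position was 0.35, and in 105 of them (37.1%) it was under 0.25.

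Few of these places could be told from their neighbours by test. A probe set was classed as graded where het differed from both wild type and null in the direction of the trend, as null only where null differed from het and het departed from the midpoint toward wild type, and as full in het where het differed from wild type and departed from the midpoint toward null. On these rules 3 probe sets were graded (2 higher, 0.00884% of those tested, and 1 lower, 0.00442%), 39 were null only (28 higher, 0.124%, and 11 lower, 0.0486%), 47 were full in het (14 higher, 0.0619%, and 33 lower, 0.146%) and 2050 (95.8% of the dose set) were unresolved. Without any 1 of the wild-type or null arrays each class held 0 or 1 probe set, and without either Dll3neo/+ array the classes held 1, 0 and 0. Without either Dll3neo/neo array they held 2, 37 and 51.

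**Figure D1:**
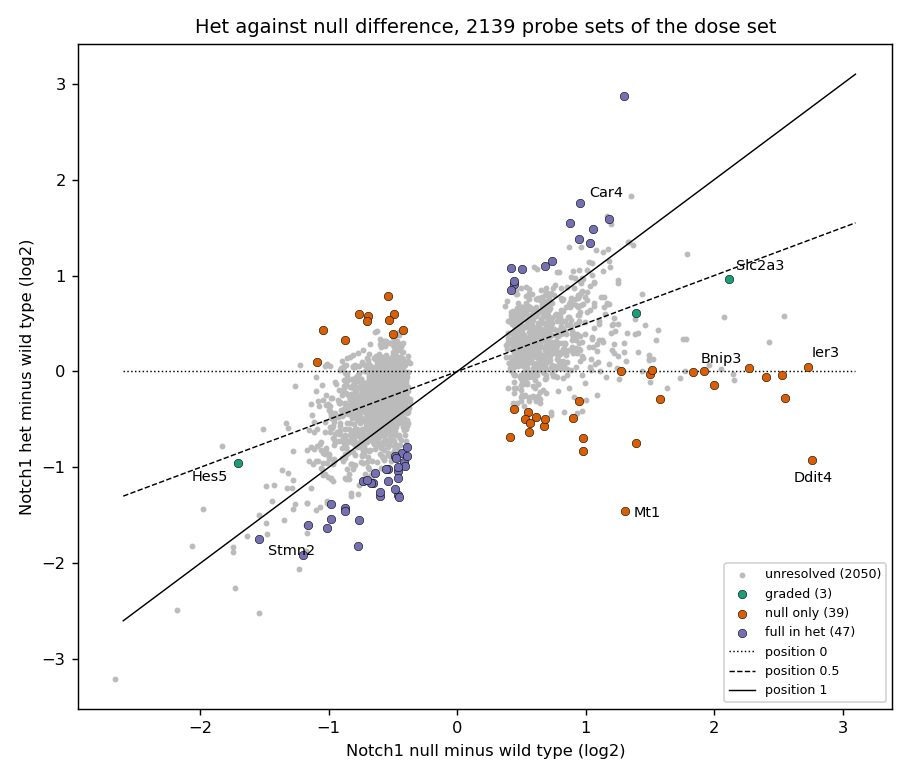
Difference of the het array from wild type (vertical axis, log2) against the difference of the null arrays from wild type (horizontal axis, log2) for the 2139 probe sets of the dose set, with the tested classes in colour and the lines of position 0, 0.5 and 1. Bnip3, Ier3 and other null-only transcripts lie along the line of position 0 out to a null difference of 2.73, Slc2a3 and Hes5 lie near the line of position 0.5, and most transcripts classed as full in het lie beyond the line of position 1.

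The graded class held only 2 named genes, Hes5 and Slc2a3. Hes5, a repressor of neuronal differentiation and a direct target of the Notch intracellular domain with Rbpj, stepped down with each allele. Hes5 1423146_at read 1.52 and 1.47 in wild type, 0.772 in the het array, and 0.493 and 0.428 in null. The 3 genotypes did not overlap, and the Dll3 arrays (0.873, 1, 1.12 and 1.05) lay between wild type and het. The null level was 3.26-fold lower than wild type (-1.70 ± 0.12, adjusted p = 0.000375). The first step was -0.95 (adjusted p = 0.0184) and the second -0.75 (adjusted p = 0.0417), which put the het array at a position of 0.56. The second step's call was lost without any 1 of the 8 other arrays and the first step's without either wild-type array. The Dll3 arrays were also lower than wild type at this probe set (-0.57, adjusted p = 0.0483). Hes5 1456010_x_at read 1.087 and 1.245, then 0.66, then 0.553 and 0.485, with a position of 0.70, and its second step was not called (adjusted p = 0.246).

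The 250 bases before the Hes5 start of the RefSeq promoter table (GRCm38.p6) hold 2 matches to the Rbpj site GTGGGAA, searched on both strands. The annotated span of the gene (chr4:154960626-154962372) begins before that window, so both matches lie inside the span. They are shown because Hes5 is the Notch target that was graded. The match is in capitals with 11 flanking bases. The first lies at chr4:154960686-154960714 and reads the site on the opposite strand, and the second lies at chr4:154960829-154960857, both printed on the plus strand.
Hes5 match 1: gggcgagcgcgTTCCCACagcccggacat
Hes5 match 2: ggccgccgagtGTGGGAAcggccgcggcg
The same 7 letters occur in the 250 bases before a start of 6.32% of the measured genes with a window (625 of 9882). A match is a description of the sequence only.

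Slc2a3, a high-affinity glucose transporter, stepped up with each allele. Slc2a3 1421924_at read 0.537 and 0.467 in wild type, 0.975 in the het array, and 2.15 and 2.20 in null. The genotypes did not overlap, and the Dll3 arrays (1.13, 0.918, 1 and 1.296) lay around the het value. The null level was 4.33-fold above wild type (2.12 ± 0.15, adjusted p = 0.000492), with a first step of 0.96 (adjusted p = 0.0338), a second step of 1.15 (adjusted p = 0.0233) and a position of 0.45. Slc2a3 1455898_x_at read 0.814 and 0.877, then 1.28, then 2.18 and 2.26, and was graded as well, at a position of 0.43. The other 2 probe sets of the gene placed the het array at 0.27 (1427770_a_at) and 0.64 (1437052_s_at), so all 4 lay in the intermediate band. Both steps of the first probe set lost their calls without any 1 of the wild-type or null arrays, while the null minus wild-type call of all 4 probe sets held without each array in turn. The Dll3 arrays were higher than wild type at the first probe set too (1.11, adjusted p = 0.0139).

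Other transcripts in the intermediate band had the same shape without both steps passing. Fn1, which encodes the matrix protein fibronectin, read 0.568 and 0.522 in wild type at 1437218_at, 1.27 in het, and 1.95 and 1.81 in null. Its first step was called (1.23, adjusted p = 0.0398) and its second was not (adjusted p = 0.297). Fn1 1426642_at, chosen after its values were seen, placed the het array higher, at 0.88. Fez1, an axon-growth adaptor, read 1.31 and 1.18, then 0.856, then 0.466 and 0.522, where the second step passed (adjusted p = 0.0369) and the first did not (adjusted p = 0.0924). Gja4, the arterial gap junction protein connexin 37, read 1.02 and 1.36, then 0.777, then 0.359 and 0.475, a null difference of -1.51 ± 0.17 (adjusted p = 0.00194) at a position of 0.40. Fabp7, a fatty acid binding protein of radial glia, read 1.60 and 1.03, then 0.475, then 0.301 and 0.351, at a position of 0.72. In each of these the het array lay between the wild-type and the null arrays. Rbm39, a splicing factor, and Syt11, a vesicle protein, had positions of 0.57 and 0.44, but their null calls were lost without null 2 and without wild type 2 and, for Rbm39, also without null 1 and wild type 1.

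Transcripts that differed only with both alleles targeted were led by genes induced by low oxygen. Of the 104 probe sets of 52 measured hypoxia and glycolysis genes, 62 were higher in null than in wild type and 0 lower, against 3.46% of all probe sets called higher. In the het array 4 were higher than wild type and 0 lower, against 0.99%, and the 4 were 0 with embryo sex as a covariate. The median difference over the list was 0.66 in null and 0.04 in het, beside -0.03 and 0.00 over all probe sets. Of the 62, 37 lay near wild type in position, 7 on its other side, 17 in the intermediate band and 1 near null, with a median position of 0.11 against 0.51 over the dose set. This median stayed between 0.05 and 0.22 over 20 alternatives, highest with embryo sex as a covariate. The count of 62 was 35 without null 2 and 39 without wild type 2. In whole-embryo RNA, fewer cells of a type and less RNA per cell cannot be told apart.

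Bnip3, a mitochondrial protein that starts mitophagy in low oxygen, read 0.961 and 1 in wild type, 0.976 in the het array, and 3.418 and 3.595 in null. The het array lay inside the wild-type range, the Dll3 arrays (0.973 to 1.01) lay within or just above it, and only the null arrays stood apart. The null level was 3.58-fold above wild type (1.84 ± 0.10, adjusted p = 0.000119), while het differed from wild type by -0.01 (adjusted p = 0.988) and null from het by 1.84 (adjusted p = 0.000681). Ier3, an immediate early gene that limits cell death, read 0.913 and 1.03, then 1.00, then 5.22 and 7.98, a null difference of 2.73 ± 0.19 (adjusted p = 0.000375). Ppp1r3c, which directs a phosphatase to glycogen, read 0.862 and 1.06, then 0.98, then 4.29 and 4.95 (2.27 ± 0.15, adjusted p = 0.000375). In both, the het array fell between the wild-type arrays. Adm, the vasodilator peptide adrenomedullin, read 1.02 and 0.634, then 0.663, then 3.71 and 6.01 (2.55 ± 0.25, adjusted p = 0.00122). Vldlr, a lipoprotein receptor, read 0.813 and 0.872 in wild type, 0.81 in het, and 4.01 and 4.94 in null at 1434465_x_at (2.40, adjusted p = 0.000119), and 1417900_a_at gave a like difference of 2.53. For Vldlr a further pair of probe sets, 1442169_at and 1451156_s_at, gave 0.31 each and was not called.

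Bhlhe40, a transcriptional repressor, Ero1a, an oxidase that forms disulfide bonds, and Ndrg1, a stress-response protein, had the same shape. Bhlhe40 read 0.899 in the het array against 0.943 and 1.05 in wild type and 3.36 and 4.71 in null. Ero1a 1449324_at read 0.988 in het against 1.07 and 0.908 and then 3.17 and 4.38. Ndrg1 1456174_x_at read 0.89 in het against 0.976 and 1.20 and then 2.80 and 3.71. None of the 3 het values lay above the higher wild-type array. Egln3, an oxygen-sensing hydroxylase, and Pdk1, a kinase that inhibits pyruvate dehydrogenase, were in the class at 1 probe set each. These were 1418649_at and 1423747_a_at, at positions of -0.02 and 0.01. Their other probe sets, Egln3 1418648_at and Pdk1 1423748_at, were unresolved at 0.19 and 0.21, and the 4 other probe sets of Ndrg1 were unresolved at -0.30 to 0.31. The null minus het calls of Bnip3, Vldlr, Ddit4, Ier3, Adm, Ppp1r3c, Bhlhe40, Ero1a and Ndrg1 held without each of the 8 other arrays in turn. Under quantile normalization the call of Ier3 was lost (adjusted p = 0.0525).

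**Figure D2:**
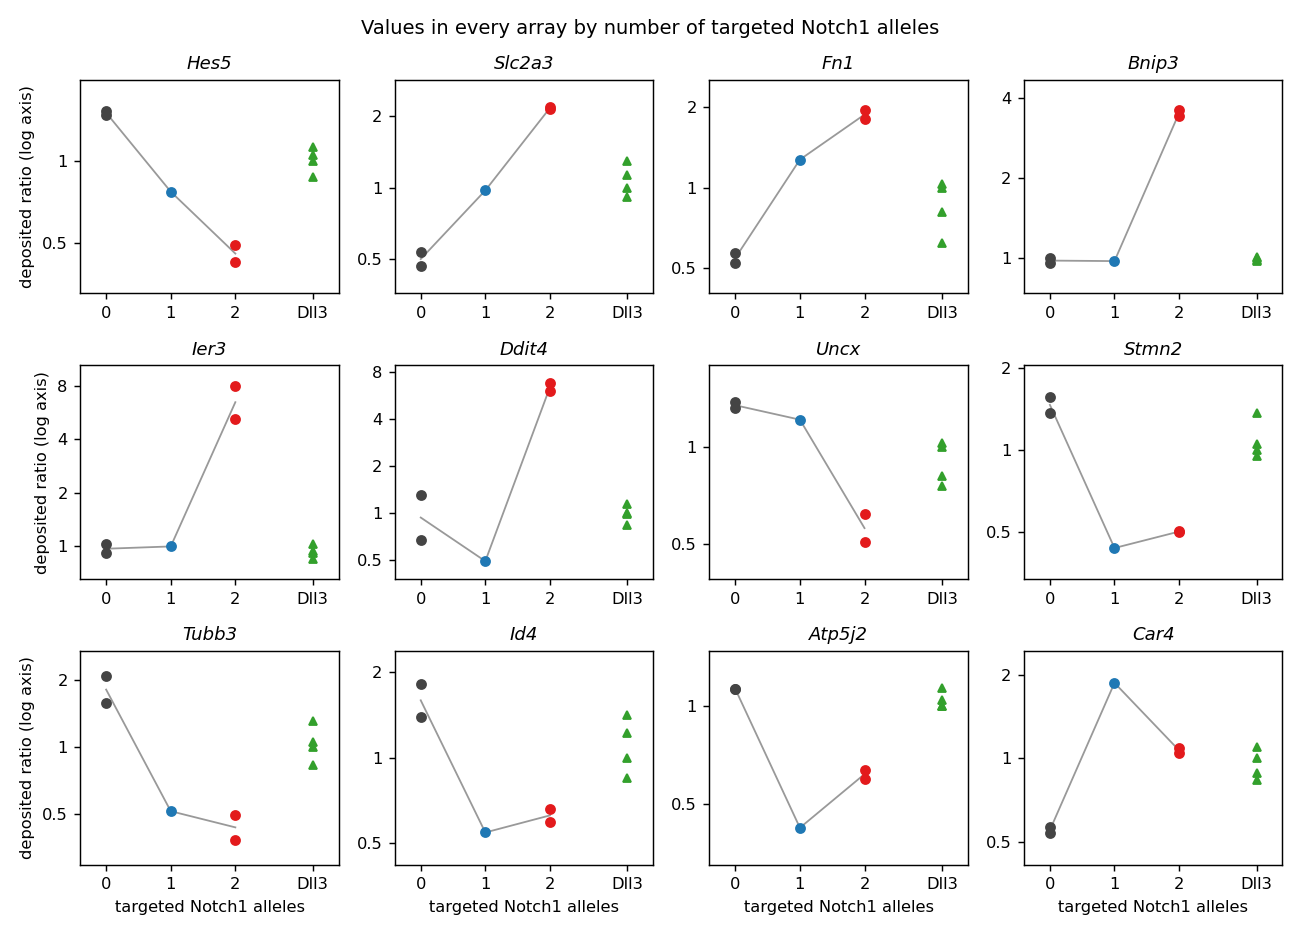
Deposited ratio (log axis) of 12 transcripts in every array, each at the gene's dose-set probe set with the largest null difference, by number of targeted Notch1 alleles (circles, 0 and 2 with 2 arrays each and 1 with 1 array) and in the 4 Dll3 arrays (triangles), with a line through the geometric mean of each Notch1 genotype. Hes5, Slc2a3 and Fn1 step at each allele, Bnip3, Ier3, Ddit4 and Uncx differ only with 2 alleles, Stmn2, Tubb3 and Id4 are near the null level with 1 allele, and Atp5j2 and Car4 lie furthest from wild type in the het array. These shapes describe the values, and by test Fn1, Uncx, Tubb3 and Id4 were unresolved.

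Not every hypoxia gene stayed at the wild-type level in the het array. Slc2a3 was graded, as above. Slc2a1, the transporter of red cells and of the blood-brain barrier, spread from 0.20 to 0.82 over its 3 probe sets in the dose set. Its 1426600_at read 0.763 and 0.784, then 1.32, then 1.37 and 1.60, with het already higher than wild type (0.77, adjusted p = 0.0256). Slc16a3, the lactate exporter, had a position of 0.67, Lox, a collagen crosslinking oxidase, 0.64, and the glycolytic enzymes Pfkl and Pgk1 0.44 to 0.58. Other glycolysis genes stayed near wild type in het. Pfkp 1416069_at, the platelet phosphofructokinase, read 0.921 and 0.894, then 1.12, then 4.04 and 5.88 at a position of 0.13. Hk2, a hexokinase, had a position of 0.02 and Aldoc, an aldolase, one of 0.12. At the other end Higd1a, a mitochondrial protein, and P4ha1, a collagen prolyl hydroxylase, lay below wild type in het, at positions of -0.62, and -0.51 and -0.47.

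The core of the hypoxia response element, ACGTG, was searched on both strands in the 250 bases before each RefSeq start. Among the 36 hypoxia and glycolysis genes of the dose set, 30 had a window and 19 of these (63.3%) held the motif. It was in 8 of 17 null-only genes that were higher (47.1%) and in 3 of 8 that were lower (37.5%). Among full-in-het genes it was in 3 of 10 that were higher (30.0%) and in 7 of 23 that were lower (30.4%). The neurogenesis genes of the dose set held it in 3 of 14 (21.4%). As background it was in 140 of 457 dose-set genes higher in null (30.6%) and in 2275 of the 9882 measured genes with a window (23.0%). The motif overlaps the E box CACGTG, which 9.19% of the measured genes held. The null-only genes with a match were Bnip3, Dbp, Ddit4, Egln3, Ero1a, Ier3, Mt1 and Ppp1r3c, and those with a window and no match were Adm, Ccng2, Gpt2, Grn, Mt2, Ndufv3, Pdk1, Scpep1 and Vldlr. The windows of 3 of the null-only genes with a match are printed to show the motif where both null arrays stood above the wild-type and het arrays. Bases in capitals are ACGTG or its reverse complement, and each window is on the gene's own strand (minus) in GRCm38.p6, ending at the base before the start. Bnip3 is at chr7:138909507-138909756, Ddit4 at chr10:59951771-59952020 and Ppp1r3c at chr19:36736605-36736854.
Bnip3: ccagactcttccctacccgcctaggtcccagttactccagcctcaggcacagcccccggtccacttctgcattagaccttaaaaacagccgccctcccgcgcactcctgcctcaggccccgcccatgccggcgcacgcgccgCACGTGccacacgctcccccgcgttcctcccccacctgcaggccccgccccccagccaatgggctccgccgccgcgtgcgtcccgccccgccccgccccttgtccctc
Ddit4: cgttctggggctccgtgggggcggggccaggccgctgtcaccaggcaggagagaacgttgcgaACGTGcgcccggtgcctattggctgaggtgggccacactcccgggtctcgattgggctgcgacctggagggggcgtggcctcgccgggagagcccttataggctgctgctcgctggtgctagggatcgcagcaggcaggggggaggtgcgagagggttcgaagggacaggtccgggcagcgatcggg
Ppp1r3c: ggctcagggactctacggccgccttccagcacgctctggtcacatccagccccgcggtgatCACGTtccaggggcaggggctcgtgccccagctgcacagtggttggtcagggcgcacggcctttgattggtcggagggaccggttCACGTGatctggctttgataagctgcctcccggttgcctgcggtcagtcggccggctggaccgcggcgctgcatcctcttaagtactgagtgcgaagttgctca
In Bnip3 the 2 matches overlap as the palindrome CACGTG. In Ppp1r3c 1 single match precedes such a palindrome, and in Ddit4 there is 1 match. No factor was measured at these windows.

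The null-only transcripts that were higher lay in 2 bands of position, a split that the class rule favours. The rule needs a called departure of het from the midpoint. Where the null difference is small, a het array near wild type departs too little to be called, and one on the far side departs further. In 12 probe sets, 11 of them from the hypoxia and glycolysis list, the het array was near wild type, with a median difference of -0.02 against 1.96 in null. In the other 16, only 1 of them (Ddit4) from that list, the het array lay on the far side of wild type, with a median of -0.55 against 0.68 in null. Ddit4, an inhibitor of the growth kinase mTORC1, read 1.31 and 0.672 in wild type, 0.495 in het, and 6.03 and 6.75 in null, and het was not called different from wild type (-0.93, adjusted p = 0.147). Mt1, a metallothionein that binds zinc, read 1.02 and 1.52, then 0.453, then 2.57 and 3.68 at 1422557_s_at, a position of -1.12. Its relative Mt2 read 0.89 and 1.08, then 0.584, then 2.140 and 3.105. In all 3 the het array was the lowest of the 5. The null call of Mt1 was lost without any 1 of the wild-type, null or Dll3neo/+ arrays and that of Mt2 without null 2 or either wild-type array, and the second Mt1 probe set, 1451612_at, showed 0.27 and no call.

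Of the 11 null-only transcripts that were lower, 10 likewise had the het array on the far side of wild type, which the same rule favours. The exception was Ptov1, a regulator of transcription, which read 1.27 and 1.31 in wild type, 1.38 in het, and 0.618 and 0.590 in null (-1.09 ± 0.10, adjusted p = 0.0011, position -0.09). Msl1, a scaffold of a histone acetylase complex, read 1.13 in both wild-type arrays, 1.41 in het, and 0.602 and 0.633 in null. Psme3, a proteasome activator, read 1.76 and 1.41, then 2.13, then 0.752 and 0.773. The het array was the highest of the 5 in each. Hspa8, Mad1l1, Ap3s2, Kmt5a and Eif4ebp2 (1437733_at) shared this order, and the null call of each was lost without at least 3 of the wild-type and null arrays in turn. Other probe sets of these genes differed: for Msl1 the 3 others showed 0.27 to 0.35 between null and wild type and no call, and for Psme3 1 gave a position of 0.29 and 1 showed 0.03 and no call. Hspa8 was in the class at 1431182_at. Its 1420622_a_at read 1.303 and 1.178, then 0.986, then 0.82 and 0.744, with het below both wild-type arrays at a position of 0.49. Probe sets of Eif4ebp2, an inhibitor of translation, disagreed as well: 1437733_at read 1.354 and 1.303, then 2.29, then 0.857 and 0.978, while 1417084_at read 2.02 and 2.46, then 0.736, then 0.992 and 1.00.

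To be classed as full in het, a probe set needed a called departure of het from the midpoint. Where the null difference is small, a het array at the null level departs too little to be called. In 46 of 47 probe sets the het array lay beyond null, a place that this rule favours. The exception was Stmn2, a microtubule regulator of growing axons, whose 1423281_at read 1.57 and 1.36 in wild type, 0.435 in het, and 0.499 and 0.501 in null. The het array lay just below the null arrays and the Dll3 arrays (0.947 to 1.36) lay above them. Het and null differed from wild type by -1.75 (adjusted p = 0.011) and -1.55 ± 0.16 (adjusted p = 0.0016), and not from each other (0.20, adjusted p = 0.69). Stmn2 1423280_at placed the het array at 0.97.

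Among the 33 that were lower, 5 encode subunits of the respiratory chain or ATP synthase. Atp5j2 read 1.13 in both wild-type arrays, 0.423 in het, and 0.639 and 0.599 in null. Atp5e read 1.08 and 1.39, then 0.42, then 0.661 and 0.785. In both, the het array was lowest and the null arrays lay between it and wild type, while the Dll3 arrays (0.899 to 1.14) were near wild type. A list of 79 such oxidative phosphorylation genes was added after these values were seen and is not independent of them. Of its 150 probe sets, 32 were lower in null (21.3%, against 5.99% of all) and 2 higher (1.33%), and 28 were lower in het (18.7%, against 1.77%) and 0 higher, with a median position of 0.98. Uqcrq, a subunit of complex III, read 0.692 in het against 0.608 and 0.648 in null (position 0.86), whereas the complex I subunit Ndufs8 had a position of 0.64 at 1423907_a_at.

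Others of the lower set were Ppp1r14a, an inhibitor of myosin phosphatase, which read 2.07 and 1.84, then 0.748, then 0.975 and 1.00, and Clcc1, a chloride channel protein, which read 1.62 and 1.64, then 0.742, then 1.00 in both null arrays. In Clcc1 the Dll3 arrays (0.947 to 1.02) stood with the null arrays and also differed from wild type (-0.74, adjusted p = 0.0139). Of the 14 that were higher, Car4, a carbonic anhydrase, read 0.537 and 0.565, then 1.87, then 1.09 and 1.04, and Sfxn1, a mitochondrial serine carrier, read 0.925 and 0.845, then 2.59, then 1.754 and 1.5. Sh3glb1, a membrane-curving protein, read 0.637 and 0.484, then 1.56, then 1.13 and 1.19, and Kansl1, a chromatin scaffold, 0.564 and 0.572, then 1.48, then 0.978 and 1.23. In all 4 the het array was the highest of the 5. Other probe sets did not all agree, since those of Sfxn1 (-0.36), Car4 (0.36) and Sh3glb1 (0.27 and -0.22) were not called between null and wild type, and for Clcc1 the 4 others were not called either (-0.34 to -0.07). The Dll3 arrays of Kansl1 (0.993 to 1.02) and Car4 (0.834 to 1.09) were also higher than wild type, by 0.83 (adjusted p = 0.0163) and 0.78 (adjusted p = 0.0258).

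Along the Notch pathway itself the receptors and ligands gave 1 call of 19 probe sets between null and wild type, Notch1, against 9.45% of all probe sets. Notch3 1421964_at, a related receptor, read 1.02 and 0.921 in wild type, 1.94 in het, and 0.917 and 1.23 in null, so that only the het array was high (1.00, adjusted p = 0.0265), while 1421965_s_at was not called. The ligand Dll3 read 1.09 and 1, then 1.16, then 0.981 and 1.09, and neither Dll1, Dll4, Jag1 nor Jag2 was called between any pair of the 3 genotypes at the probe sets named. Of 38 probe sets for processing enzymes and nuclear effectors, 2 were higher in null (5.26%, against 3.46% of all), a share near the background. They were Adam10, a protease that cuts Notch once a ligand has bound (position 1.00), and Numb, an endocytic inhibitor (1.31). Both calls were lost without any 1 of the wild-type or null arrays, that of Numb also without either Dll3neo/neo array. Spen, a co-repressor of Rbpj, was high in het alone (0.926 and 1.04, then 2.31, then 1.26 and 1.42). Rbpj, the ubiquitin ligase Mib1 and the glycosyltransferase Lfng were not called between null and wild type, and Lfng 1420643_at was lower in null than in het (-0.65, adjusted p = 0.0463).

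Of 38 probe sets of genes listed as Notch targets, 15 were lower in null and 1 higher, against 5.99% and 3.46%, and 6 were lower in het, against 1.77% (1 with embryo sex as a covariate). Most of the 15 were probe sets of Id1, Id3, Id4, Hes6, Ccnd1 and Snai1, and the others were of Hes5, Nrarp and Heyl. The 16 divided evenly over the bands, 4 near wild type, 6 intermediate and 6 near null, with a median position of 0.60. Besides Hes5, Hes6, which favours neuronal differentiation, read 1.36 and 1.40, then 0.922, then 0.676 and 0.731 at 1436050_x_at, and its first step narrowly missed the threshold (-0.58, adjusted p = 0.0531). Id4, an inhibitor of bHLH factors, read 2.12 and 1.71, then 0.736, then 0.943 and 0.757 at 1450928_at, so het was already at the null level (-1.37, adjusted p = 0.0119, position 1.17). Its 1423259_at read 1.83 and 1.39, then 0.545, then 0.593 and 0.661 (position 1.15), and the other probe set gave 1.01. Id1, of the same family, had a position of 0.96 and Id3 one of 0.18. Nrarp, a feedback inhibitor of Notch, gave 0.81 at 1417985_at and 0.14 at 1417986_at. Heyl, a repressor of the Hey family, had a position of 0.27 at 1419302_at. Its 1419303_at (0.08, adjusted p = 0.813 in limma) and 1438886_at (-0.29, adjusted p = 0.16) were not called between null and wild type. The cyclin Ccnd1 had positions of 0.18 and 0.34, and its 1417419_at was not called (-0.62, adjusted p = 0.0964). Hes1 (-0.18, adjusted p = 0.459), Hey1 (-0.37, adjusted p = 0.19), Hes7 (0.13, adjusted p = 0.59) and Hey2 (-0.05, adjusted p = 0.878) were not called between null and wild type. The count of 15 was 7 and 6 without null 1 and null 2, 5 without wild type 1 and 8 without wild type 2.

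Genes of differentiating neurons lay near the null level with 1 allele. Of 80 probe sets of 41 neurogenesis genes, 27 were lower in null (33.8%, against 5.99% of all probe sets) and 0 higher, and 12 were lower in het (15.0%, against 1.77%) and 0 higher. Of the 27, 17 lay near null, 2 beyond it, 7 in the intermediate band and 1 near wild type, and the median position was 0.85, from 0.79 to 0.94 over 20 alternatives. The Dll3 arrays, which carry wild-type Notch1, were shifted the same way. Over the 27, chosen against the same wild-type arrays, their medians were -0.37, -0.30, -0.29 and -0.46, beside -0.84 in het and -0.87 and -0.93 in null. Of the 80, 2 were called lower in the Dll3 arrays (2.5%, against 0.34% of all). Tubb3, the neuronal tubulin, read 2.08 and 1.58 in wild type, 0.513 in het, and 0.382 and 0.492 in null. The het array was just above the null arrays and the Dll3 arrays (0.826 to 1.32) were between them and wild type. Null differed from wild type by -2.07 ± 0.22 (adjusted p = 0.00165) and het by -1.82 (adjusted p = 0.0173), and null did not differ from het by test (-0.24, adjusted p = 0.739). Neurog2, a proneural transcription factor, read 1.41 and 1.28, then 0.741, then 0.638 and 0.662 (position 0.82), and the migration protein Dcx 1.72 and 1.83, then 0.928, then 0.828 and 0.846 at 1418141_at (0.86). The neurofilaments Nefl and Nefm had positions of 0.93 and 0.94. Scg3, a secretory granule protein, was the exception at 0.09, with 1.06 and 1.20, then 1.08, then 0.686 and 0.724. The count of 27 was 15, 14, 11 and 13 without null 1, null 2, wild type 1 and wild type 2, and the 12 in het were 0 without either wild-type array and 1 with embryo sex as a covariate.

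Neural progenitor genes were less uniform. Of 49 probe sets 16 were lower in null (32.7%, against 5.99% of all) and 2 higher (4.08%, against 3.46%), and 9 were lower in het (18.4%, against 1.77%) and 1 higher (2.04%, against 0.99%), with a median position of 0.70 over the 18. Pou3f3, a factor of the dorsal neural tube, lay at 1.04, Ckb, a creatine kinase, at 0.97 and Pax3, of the dorsal tube and somites, at 1.34 and 1.65. Sox3, an early neural factor, read 1.06 and 0.959, then 1.11, then 0.560 and 0.552 at 1435192_at, with only the null arrays low, but its 1450485_at had a position of 0.80. Nkx2-2, of the ventral tube, lay at -0.04 and Sox21, a counterpart of Sox3, at -0.47. The 16 were 6 to 7 without any 1 of the wild-type or null arrays, and the 9 in het were 0 without either wild-type array and with embryo sex as a covariate.

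**Figure D3:**
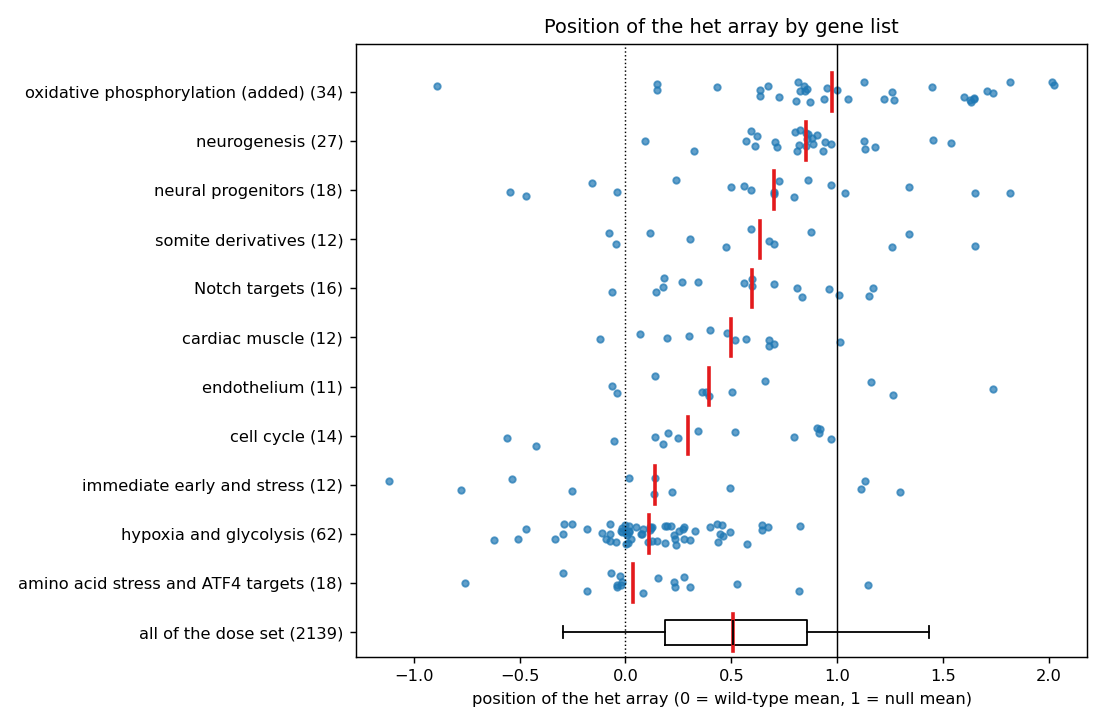
Position of the het array (horizontal axis, 0 at the wild-type mean and 1 at the null mean) for probe sets of the dose set in each gene list, 1 point each with the median in red and the number in brackets, and for the whole dose set as a box of quartiles with whiskers from the 5th to the 95th percentile. Hypoxia and glycolysis (median 0.11) and ATF4 targets (0.03) gather near 0, neurogenesis (0.85) near 1, and the whole dose set has its median at 0.51. The hypoxia and ATF4 lists share the probe sets of Vldlr, Ndrg1 and Stc2.

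Targets of Atf4, the factor of amino acid shortage, resembled the hypoxia genes, with which they share Vldlr, Ndrg1 and Stc2. Most of the probe sets called higher in null belong to these shared genes, so the likeness is largely the same values counted in both lists. The others called higher, of Eif4ebp1, Shmt2, Chac1, Pck2 and Slc7a3, lay at positions of -0.76 to 0.16. Of 69 probe sets 15 were higher in null (21.7%, against 3.46% of all) and 3 lower (4.35%, against 5.99%), with a median position of 0.03. In het 0 were higher, against 0.99% of all, and 2 lower (2.90%, against 1.77%). At an unadjusted p under 0.05 in limma 14 stood either way in het, beside 4381 of 22626 over all probe sets. Chac1, which degrades glutathione, read 0.99 and 1.11, then 1.00, then 2.92 and 4.15 (1.73 ± 0.18, adjusted p = 0.0016), and Stc2, a secreted glycoprotein, read 0.778 and 0.551, then 0.981, then 3.23 and 4.53 at a position of 0.23. The het array of Chac1 lay between the wild-type arrays, and that of Stc2 above both. The 15 were 6 without null 2, 7 without wild type 1 and 8 without wild type 2. In contrast Asns, which makes asparagine, read 1.06 and 1.00 in wild type, 0.536 in het, and 1.31 and 1.72 in null, so that het alone was low.

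Somite genes that were lower in null were split. Of 40 probe sets 10 were lower in null, against 5.99% of all, and 2 higher, against 3.46%, and 2 were lower in het, against 1.77%. Uncx, a homeobox factor of the posterior somite, read 1.38 and 1.32 in wild type, 1.22 in het, and 0.621 and 0.507 in null. The het array lay close to wild type and the null arrays were apart (-1.27 ± 0.12, adjusted p = 0.00121; null minus het -1.12, adjusted p = 0.0133; position 0.12). Aldh1a2, which makes retinoic acid, read 1.58 and 1.28, then 1.5, then 0.651 and 0.759, and Pax1, a sclerotome factor, 1.28 and 1.09, then 1.22, then 0.572 and 0.696. Both het values lay between the wild-type arrays. Tcf15, the paraxis gene, had a position of 0.47, and Meox2, a somite homeobox gene, 0.59 and 0.87. The median position of the lower members was 0.53 and turned to -0.20 without wild type 1, and their number was 3 to 5 without any 1 of the wild-type or null arrays.

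Of 68 cardiac probe sets 11 were higher in null (16.2%, against 3.46% of all) and 1 lower (1.47%, against 5.99%). Of 59 endothelial ones 10 were higher (16.9%) and 1 lower (1.69%). Ankrd1, a load-responsive muscle protein, read 0.945 and 0.83, then 0.936, then 2.00 and 2.01 at 1420991_at, with only the null arrays high, but its 1420992_at lay at 0.40. Myh7, the slow myosin chain, read 0.983 and 0.842, then 1.05, then 1.77 and 2.10 (0.19), while Myh6, its atrial relative, lay at 1.01. Sox17, a factor of arterial endothelium and gut endoderm, read 1.01 and 1.04, then 1.00, then 1.90 and 2.13 (0.97, adjusted p = 0.00294; null minus het 1.01, adjusted p = 0.0173). Kdr, a receptor for vascular growth factor, read 0.834 and 1.03, then 1.38, then 1.57 and 1.82 at a position of 0.66. The median positions of the higher members, 0.52 and 0.44, were not stable: the cardiac one was 0.20 without wild type 2, and the endothelial one ranged from -0.04 to 0.66 over 15 alternatives. Their counts were 3 to 5 and 1 to 7 without any 1 of the wild-type or null arrays.

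Of 77 cell-cycle probe sets 13 were lower in null (16.9%, against 5.99% of all) and 1 higher, against 3.46%, and 1 was lower in het, against 1.77%, so that the het share was below that of all probe sets. Ccne1, the cyclin of entry into DNA synthesis, read 1.20 and 1.34, then 1.32, then 0.569 and 0.518, so that het lay between the wild-type arrays (null minus wild type -1.22, adjusted p = 0.00125; null minus het -1.29, adjusted p = 0.00749). Ccnd2, a cyclin of the preceding phase, read 1.84 and 2.04, then 1.00, then 1.02 and 0.866, so that het lay with null. In Ccnd2 the Dll3 arrays (0.82 to 1.11) were lower than wild type as well (-1.004, adjusted p = 0.0139). The median position of the lower members was 0.25 and became 0.87 without wild type 1, and their number was 2 to 5 without any 1 of the wild-type or null arrays. The presomitic mesoderm list gave 5 calls of 36 probe sets in null (13.9%, against 9.45% of all) and 0 in het, where 10 stood at an unadjusted p under 0.05 in limma. The p53 list gave 5 of 52 (9.62%), at the share over all probe sets, and 0 in het (7 unadjusted). Ribosomal protein genes gave 0 of 59 in null, against 9.45% of all (limma, 7 at an unadjusted p under 0.05), and 2 lower in het (3.39%, against 1.77%). At that unadjusted level 5350 of all 22626 probe sets stood between null and wild type and 4381 between het and wild type.

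Among markers of tissues that a dissection could carry, decidua and trophoblast genes gave 0 calls of 20 probe sets in any of the 3 pairs of genotypes in limma. Over all probe sets 9.45% were called between null and wild type, 2.76% between het and wild type and 1.78% between null and het. At an unadjusted p under 0.05 in limma 0, 5 and 4 of the 20 stood in these 3 pairs. Over all 22626 probe sets 5350, 4381 and 3868 did. Primitive red cell genes gave 1 of 35 in null, Tfrc, the transferrin receptor. This share (2.86%) was below that of all probe sets (9.45%). Yolk sac and endoderm genes gave 5 higher (11.1%) and 1 lower (2.22%) of 45 in null, against 3.46% and 5.99% of all probe sets, and 2 higher in het (4.44%), against 0.99%. Among them Lrp2, an endocytic receptor, read 0.780 and 0.734, then 1.28, then 1.367 and 1.498, and Dab2, its adaptor, 0.800 and 0.881, then 1.53, then 1.37 and 1.57. Over the whole yolk sac list the arrays' medians relative to the wild-type mean were -0.21 and 0.21 in wild type, 0.12 in het, and 0.15 and -0.32 in null, so the genotypes overlapped.

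A further 94 probe sets (0.415%) had the het array apart, differing from wild type and from null in opposite directions, 48 high in het and 46 low. Polr2a, the catalytic subunit of RNA polymerase II, read 1.31 and 1.13 in wild type, 2.83 in het, and 0.843 and 1.08 in null. Celsr1, a planar polarity cadherin, read 1 and 0.833, then 2.66, then 0.975 and 1.48, and Adpgk, a glucokinase that uses ADP, 0.803 and 1.02, then 2.21, then 0.892 and 1.00. Among those low in het were Smim14 (1.16 and 1.05, then 0.421, then 1.00 and 1.08) and Cds2, a phospholipid enzyme (1.16 and 1.02, then 0.533, then 1.42 and 1.31). These values follow no order of allele number. The count was 0 without either wild-type array, 9 and 5 without null 1 and null 2, 36 without either Dll3neo/+ array and 8 with embryo sex as a covariate.

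The length of the gene moved with the direction of change. The median genomic span in RefSeq (GRCm38.p6) was 54.1 kb (quartiles 25.2 and 102) for the 569 genes higher in null and 11.2 kb (5.43 and 24.4) for the 1055 lower, against 20.1 kb over 12369 measured genes. Among genes higher in null the median was 39.1 kb near wild type, 64.3 kb in the intermediate band and 66.5 kb near null, and among those lower it was 12.3, 10.4 and 10.9 kb. Genes called between het and wild type had medians of 47.3 kb where higher (179 genes) and 12.9 kb where lower (334 genes). Between the Dll3 arrays and the same wild-type arrays the medians were 39.8 kb (55 genes) and 26.4 kb (69 genes). The median was 13.3 kb for the null-only genes that were higher and 4.37 kb for the full-in-het genes that were lower. The part of gene length in the positions was not tested.

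**Figure D4:**
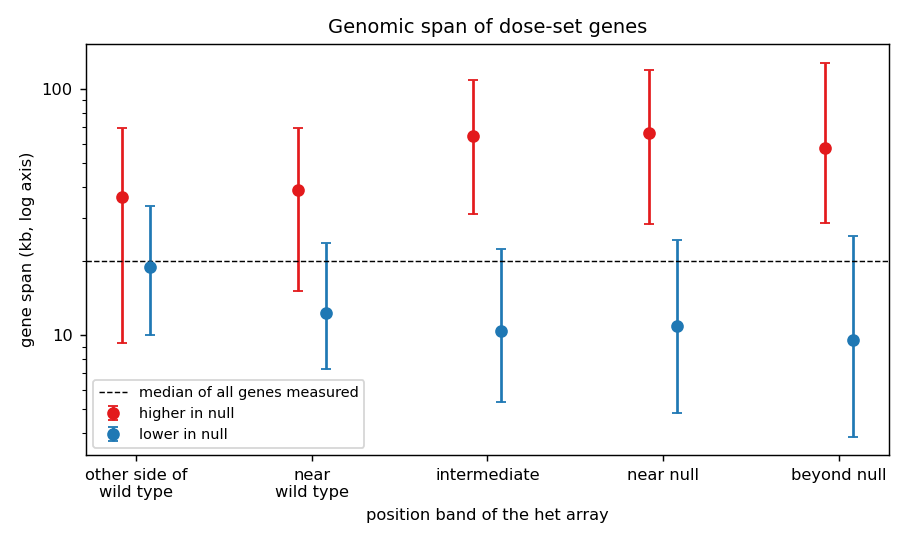
Median genomic span of dose-set genes (kb, log axis, bars from the first to the third quartile) by band of the het array's position and by direction in null, with the median over all measured genes as a dashed line at 20.1 kb. Genes higher in null are longer than that median in every band, up to 66.5 kb near null, and genes lower in null are shorter, down to 9.57 kb beyond null.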

How the data were processed

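Whole-embryo total RNA of 9 mouse samples was hybridised to a 3' expression array. The deposited values are linear ratios that the authors made from RMA signals, per the submitters' processing notes, which give no version. For 19847 probe sets (87.5%) the median over the arrays is exactly 1, and no source used here names the divisor. From these ratios log2 values were taken with a pseudocount of 0 and no filter. Of 22690 probe sets, 64 controls were set aside, and 20380 carried a single gene symbol (12393 genes), 691 several and 1555 none.

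limma 3.58.1 in R 4.3.3 was fitted over all 9 arrays with 1 mean per genotype (4 residual and 5.42 prior degrees of freedom), and p-values were adjusted by Benjamini-Hochberg over all 22626 probe sets in each comparison. The single het array is thus assumed to vary like the other groups. The scripts were tested on simulated data. An unresolved probe set may belong to any class. Members, lists and tests were chosen with earlier results of these data known.

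Genes were named by rule: for each tested class and direction up to 8 with the largest null difference, filled up to 5 from its band. To these were added 5 each way with the het array apart, all Notch receptors, ligands and targets and sex-linked genes, the 2 to 4 members of each list with the lowest p, and Mib1, Rbpj and Lfng. Other list members, such as Slc16a3, Lox, Hk2, Scg3, Tcf15, Meox2, Myh6 and the neurofilaments, were chosen after their values were seen. Gene spans and promoter windows are from RefSeq (GRCm38.p6). The number of arrays limits the precision.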

Additional observations from a re-analysis of the deposited data

Results flagged for a closer look

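The second Notch1 allele was set against the second Dll3 allele by the interaction of null minus het in both series, a comparison added after the data were seen and applied to members chosen on the Notch1 side. Over all probe sets 47 differed (limma, 0.208% of 22626). Among the named ones the log2 difference between the 2 second-allele effects was 3.46 for Ddit4 (adjusted p = 0.03), 2.82 for Adm (0.0388), 2.68 for Ier3 (0.03), 2.59 and 2.50 for Vldlr (0.0072 and 0.03), 2.42 for Ppp1r3c (0.0195), 2.11 for Ero1a (0.03), 2.02 for Bhlhe40 (0.03), 1.89 for Ndrg1 (0.0347) and 1.83 for Bnip3 (0.0072). These are the hypoxia-response genes that stayed near wild type in the het array or, for Ddit4, below it. For the metallothioneins it was 3.26 for Mt1 (0.0451) and 2.57 for Mt2 (0.0388).

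Transcripts lower with the second Notch1 allele had differences of -1.62 for Hspa8 (0.0451), -1.59 for Psme3 (0.0437), -1.47 for Eif4ebp2 at 1437733_at (0.03), -1.31 for Kmt5a (0.0388), -1.24 for Mad1l1 (0.0451), -1.22 for Msl1 (0.0334) and -1.18 for Ptov1 (0.0347). In the Dll3 series the null minus het difference of all these lay between -0.50 (Mt1) and 0.26 (Hspa8). The Notch1 side rests on 1 het array.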

How the results depend on the processing

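With quantile normalization the null minus wild-type count was 969, het minus wild type 199, null minus het 49 and the midpoint count 27, with 0 graded, 2 null only and 7 full in het. With only the 5 wild-type and Notch1 arrays the last 3 comparisons gave 198, 88 and 0 (limma, 4183 at an unadjusted p under 0.05), with 0 null only and 0 full in het. With embryo sex as a covariate they gave 36, 105 and 0 (3096 unadjusted), and all 3 classes held 0. Averaging a gene's probe sets gave 279 for het minus wild type, 97 for the midpoint, 1 graded, 20 null only, 19 full in het, 33 for the hypoxia list and 8 for Notch targets. At an adjusted p under 0.01 the comparisons gave 511, 9, 31 and 0, all classes 0, the neurogenesis list 14 and Notch targets 6, and Notch1 1418633_at (0.71) was not called. At 0.1 for the het tests the classes held 6, 138 and 178, and at a log2 change of at least 1 there were 17 null only and 8 full in het.

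The replicate numbers did not pair the arrays (correlations of deviations -0.10 to 0.16). With the replicate block het minus wild type gave 363, null minus het 150, the midpoint 42, and the classes 0, 5 and 11. Leaving out each array in turn, with a lone array assumed to vary like the others, gave 306 to 2120 for null minus wild type, 0 to 543 for het minus wild type, 22 to 341 for null minus het, 0 to 215 for the midpoint, 0 to 2 graded, 0 to 37 null only and 0 to 51 full in het. The hypoxia list held 35 to 64, neurogenesis 11 to 27 and Notch targets 5 to 16, and Notch1 1418633_at lay between 0.61 and 0.81. The Y-linked Kdm5d (1424903_at) turned from -0.90 (adjusted p = 0.749) to 0.69 (0.04) with the sex covariate. Each result under an alternative was compared with the main fit. Probe sets were judged by their side of the threshold, and counts and median positions by their size. A change of sign in a probe set called in neither fit counted as the same. Of the main results (comparison and class counts, median position, these 3 lists in null and Notch1), 142 were the same, 96 weaker and 3 stronger. Of the others, 4462 were the same, 1012 weaker, 11 stronger, 5 moved and 1 (Kdm5d) reversed. The cause was not tested.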
